A study of Mus musculus with 3 samples.

Results

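Tissue kallikreins are a cluster of secreted serine proteases. The genes described here are the 9 of them that are known from the epidermis (Klk5, Klk6, Klk7, Klk8, Klk9, Klk10, Klk11, Klk13 and Klk14) and Spink5. The last is the gene of LEKTI, an inhibitor of several of these proteases. All 10 genes were chosen by symbol and were among the 33696 genes counted. They were followed through keratinocytes, which were picked out by marker genes from 3 single-cell RNA libraries of mouse dorsal skin. All mice were 9-week-old female C57BL/6 mice whose back skin had been depilated with wax strips. The Cont library came from vehicle-treated mice, the CIA library from a model of chemotherapy-induced alopecia, and the CIA+VFX library from that model given venlafaxine. Each library pooled skin from a number of mice that is not stated, and the chemotherapy drug, the doses and the day of sampling are not named. With 1 library per group no test between groups was possible, and the intervals below (95%) cover counting error only.

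In the epidermis, kallikreins are made as inactive precursors by differentiating keratinocytes, packed into lamellar granules and released into the spaces of the horny layer. There they activate one another and cut the corneodesmosomes that hold dead cells together, so that the surface is shed. LEKTI binds several of them and is inactive at the acid surface. Loss of LEKTI in Netherton syndrome leaves those proteases unchecked, and the skin then peels and becomes inflamed.

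The 9 kallikrein genes lie in 1 cluster on chromosome 7, on the plus strand, in the order Klk14, Klk13, Klk11, Klk10, Klk9, Klk8, Klk7, Klk6 and Klk5, and their first and last start sites are 151851 bases apart (RefSeq, GRCm38.p6). The libraries themselves were aligned to GRCm39, so these coordinates serve only to place the sequences. The promoters of 4 members are shown because Klk6, Klk13 and Klk10 were among the members that differed most between the libraries below, and Klk7 had the most transcripts. Each stretch is taken from the 250 bases before the first RefSeq start of the gene (Klk6 has 2 starts) and stops where an annotated exon begins, which for Klk6 and Klk10 is short of that start, so Klk6 has 205 bases, Klk10 has 231, and Klk7 and Klk13 have 250. The Klk13 and Klk10 stretches lie inside an annotated antisense transcript, 2310002F09Rik, and the Klk7 stretch holds no annotated feature. Capitals mark a match to one of 5 motifs, searched on both strands in the 250 bases before each start, and lower case holds none of them.
Klk6, chr7:43824294-43824498: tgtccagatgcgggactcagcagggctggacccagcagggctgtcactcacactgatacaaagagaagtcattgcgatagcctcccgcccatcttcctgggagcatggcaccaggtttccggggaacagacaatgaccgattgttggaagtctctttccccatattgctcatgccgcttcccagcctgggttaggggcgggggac
Klk13, chr7:43712317-43712566: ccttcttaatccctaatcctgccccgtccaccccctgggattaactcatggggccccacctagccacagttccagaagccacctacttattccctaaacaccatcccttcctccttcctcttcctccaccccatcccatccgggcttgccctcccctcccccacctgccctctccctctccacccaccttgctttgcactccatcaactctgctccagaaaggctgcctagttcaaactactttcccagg
Klk10, chr7:43780804-43781034: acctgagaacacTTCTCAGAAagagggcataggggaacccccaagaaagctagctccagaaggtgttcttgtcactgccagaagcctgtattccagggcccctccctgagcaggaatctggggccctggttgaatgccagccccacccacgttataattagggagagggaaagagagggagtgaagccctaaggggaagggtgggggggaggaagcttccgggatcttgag
Klk7, chr7:43811044-43811293: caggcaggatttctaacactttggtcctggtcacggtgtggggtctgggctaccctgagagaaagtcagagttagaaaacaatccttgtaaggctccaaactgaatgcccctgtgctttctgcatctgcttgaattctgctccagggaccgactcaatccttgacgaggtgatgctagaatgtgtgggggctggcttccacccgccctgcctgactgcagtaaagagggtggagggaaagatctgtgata
The motifs were AP-1 (TGANTCA), C/EBP (TTNNGCAA), Grainyhead (AACNNGTT), STAT (TTCNNNGAA) and the TATA box (TATAAA), which 6.75%, 9.56%, 3.64%, 7.02% and 12.4% of all 32851 promoter windows of that length held. Klk10 had 1 STAT match at base -238 and Klk11 had 2 C/EBP matches, at -237 and -109 of its 2 start sites. No other kallikrein member had a match. Motifs of different kinds did not meet in the same promoter, and Klk6, Klk13 and Klk10 shared none of them.

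The libraries held 14529 barcodes in Cont, 17675 in CIA and 18987 in CIA+VFX, with 143164803, 130557879 and 155210692 UMIs (unique molecular identifiers, each counted once per captured transcript). Keratinocytes numbered 3991, 3785 and 5996, and their median depths were 12196, 7608 and 8094 UMIs, so Cont keratinocytes were the deepest. They were sorted by marker scores into 8 classes, and 24.0% to 26.0% of them lay near a cut. The classes that matter most here begin with the suprabasal class (85, 131 and 215 cells, with Krt1 and Krt10 among the markers). The upper follicle class (537, 490 and 621 cells) had Krt79 and Krt17 among its markers. The basal class (930, 1364 and 1883 cells) was drawn by markers of basal epidermis and the outer root sheath of the follicle. The 7 granular layer markers, which were not used to draw the classes, summed to 352, 425 and 231 CPM (UMIs of a gene per 1000000 UMIs of the class) in the suprabasal class and to 0.321, 1.61 and 1.14 in the basal class, and 3 of them were at 0 in the suprabasal class of each library. Barcodes with markers of 2 tissues were left out (592, 762 and 1582), and 75 to 110 barcode sequences were shared between any 2 libraries.

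Outside Klk8, Klk13 and the hardly counted Klk14, between 89.3% and 98.9% of each member's UMIs in a library lay in these keratinocytes. Most of them came from a small part of the epithelium. The suprabasal class held only 2.01%, 4.98% and 5.02% of keratinocyte UMIs in Cont, CIA and CIA+VFX, but it held 50.4%, 65.1% and 66.4% of the Spink5 UMIs. The upper follicle class held 71.3%, 60.2% and 57.6% of the Klk7 UMIs and 80.0%, 77.3% and 75.7% of the Klk6 UMIs. The bulge and the matrix were almost empty of kallikreins, with at most 19 UMIs of all 9 genes in either class and any library.

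**Figure D1:**
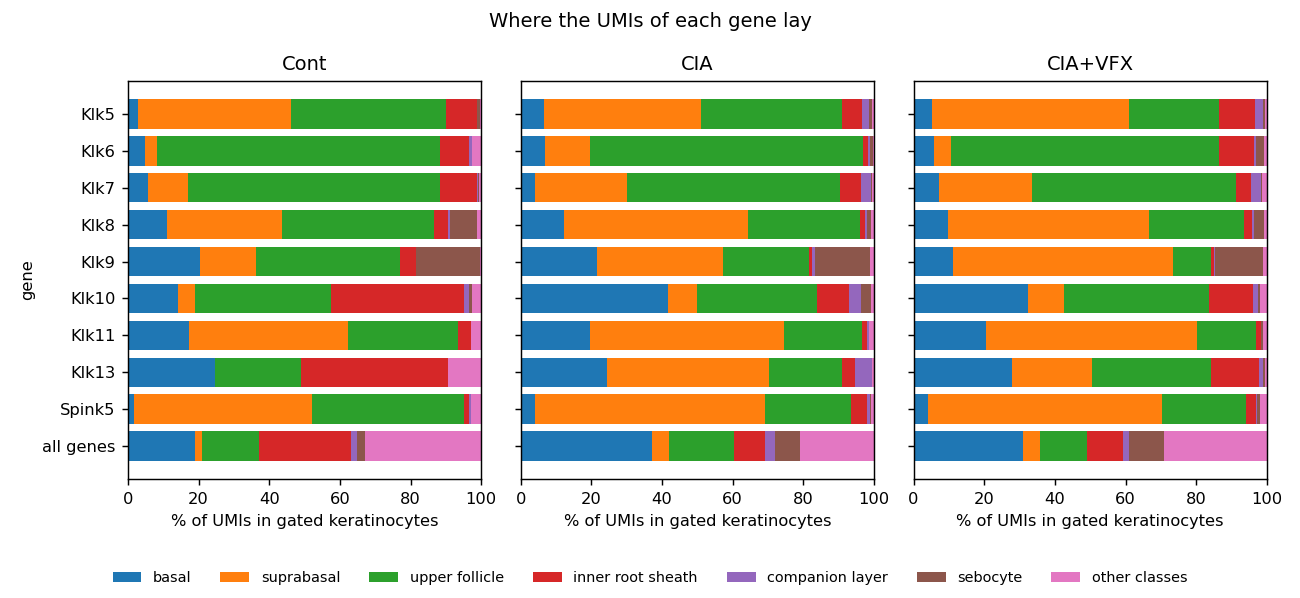
Bars show where the UMIs of each gene lay among the keratinocyte classes (percent of the gene's UMIs in gated keratinocytes) in the 3 libraries, with the class shares of all UMIs as the lowest bar. Spink5 lay mostly in suprabasal cells (50.4% to 66.4%) and Klk6 and Klk7 in the upper follicle (57.6% to 80.0%), far above those classes' shares of all UMIs.

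Over all keratinocytes, every kallikrein that could be measured and Spink5 were higher in CIA than in Cont, and the libraries stood apart most for Klk6. A gene counted as measured with at least 50 UMIs in the 2 libraries together, and as different at 1.5-fold or more. By this rule 9 of 9 measured members were higher in CIA, against 13.9% of 15884 genes, and none was lower, against 5.54%. Their log2 ratios ran from 0.68 to 3.41 with a median of 1.12, and the median of all genes was 0.05. Klk14, a trypsin-like protease of the horny layer, had 4, 8 and 8 UMIs and was not compared.

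Klk5 starts the cascade by activating other kallikreins, itself included. Its level was 5.40 CPM in Cont, 11.2 in CIA and 9.53 in CIA+VFX, with a log2 ratio of 1.05 (0.85 to 1.26) between CIA and Cont. Klk7, the chymotrypsin-like protease that cuts corneodesmosin, gave most kallikrein UMIs: 72.7%, 63.1% and 62.5% of them. Its level was 95.3, 194.5 and 117.1 CPM, a log2 ratio of 1.03 (0.98 to 1.08) between CIA and Cont. Both proteases were lowest in Cont and highest in CIA.

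Klk6, a trypsin-like protease best known from the nervous system, had 2.20 CPM in Cont, 23.4 in CIA and 12.9 in CIA+VFX. The log2 ratio between CIA and Cont was 3.41 (3.16 to 3.67), the highest of the 9. Klk8, known as neuropsin and also trypsin-like, had 9.91, 32.5 and 19.1 CPM (1.71, 1.58 to 1.85). Klk13, another trypsin-like member, was rare, with 0.805, 3.63 and 2.48 CPM from 53, 152 and 176 UMIs (2.17, 1.71 to 2.65). These 3 genes and Klk10 formed the upper end of the range.

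Klk10 had 9.56, 29.8 and 14.3 CPM, a log2 ratio of 1.64 (1.501 to 1.78) between CIA and Cont. Klk9 and Klk11 differed least, at 0.68 (0.42 to 0.94) and 0.78 (0.54 to 1.02). Spink5, the inhibitor, had 42.5, 92.6 and 72.1 CPM (1.12, 1.05 to 1.20). For Klk9 the ratio was under the 1.5-fold line when each cell had equal weight (0.41) or the deepest 5% of barcodes were left out (0.44), and for Klk11 with equal weight (0.24) and when cells were thinned to 3000 UMIs (0.56).

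The suprabasal class, rich in kallikreins, had a larger share of the UMIs in CIA, and a sum over all keratinocytes moves with that share. Each class was therefore weighted by its share of UMIs in Cont, with the upper follicle split by suprabasal score as described below. The number of members higher in CIA was then 4 of 9 in place of 9. Those 4 were Klk6 (log2 2.32), Klk13 (1.31), Klk10 (1.12) and Klk8 (0.64). The values of Klk5 (0.27), Klk7 (0.27) and Spink5 (0.25) were under the line, and those of Klk9 (-0.45) and Klk11 (-0.28) changed sign. Numbers of cells per area of skin were not measured.

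With venlafaxine, 4 of 9 members were at least 1.5-fold lower in CIA+VFX than in CIA, against 4.74% of 16156 genes, and none was higher, against 3.22%. The 4 were Klk10 (log2 -1.06, -1.18 to -0.94), Klk6 (-0.86, -0.99 to -0.73), Klk8 (-0.77, -0.88 to -0.66) and Klk7 (-0.73, -0.78 to -0.69). Klk5, Klk9, Klk11, Klk13 and Spink5 lay between -0.55 and -0.15. The count was 2 when the deepest 5% of barcodes were left out, where Klk7 (-0.57) and Klk8 (-0.40) did not reach the line, and also 2 with class shares held at those of Cont. In that second reckoning Klk10 (-0.75) and Klk8 (-0.59) were still lower, and Klk6 was nearly level (-0.07).

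Compared with Cont, CIA+VFX was higher for 6 of 9 members (Klk5, Klk6, Klk8, Klk11, Klk13 and Spink5; 10.6% of 16531 genes were higher) and lower for none (4.05%). Klk6 stood furthest off, at 2.55 (2.30 to 2.81), and Klk7 was close to Cont at 0.30 (0.25 to 0.34). With class shares held at those of Cont, Klk6 (2.25) and Klk13 (1.37) were higher and Klk9 (-0.62) was lower. The count of higher members was also 2 when each cell had equal weight. The 3 comparisons share their libraries, so their counts are not separate evidence.

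**Figure D2:**
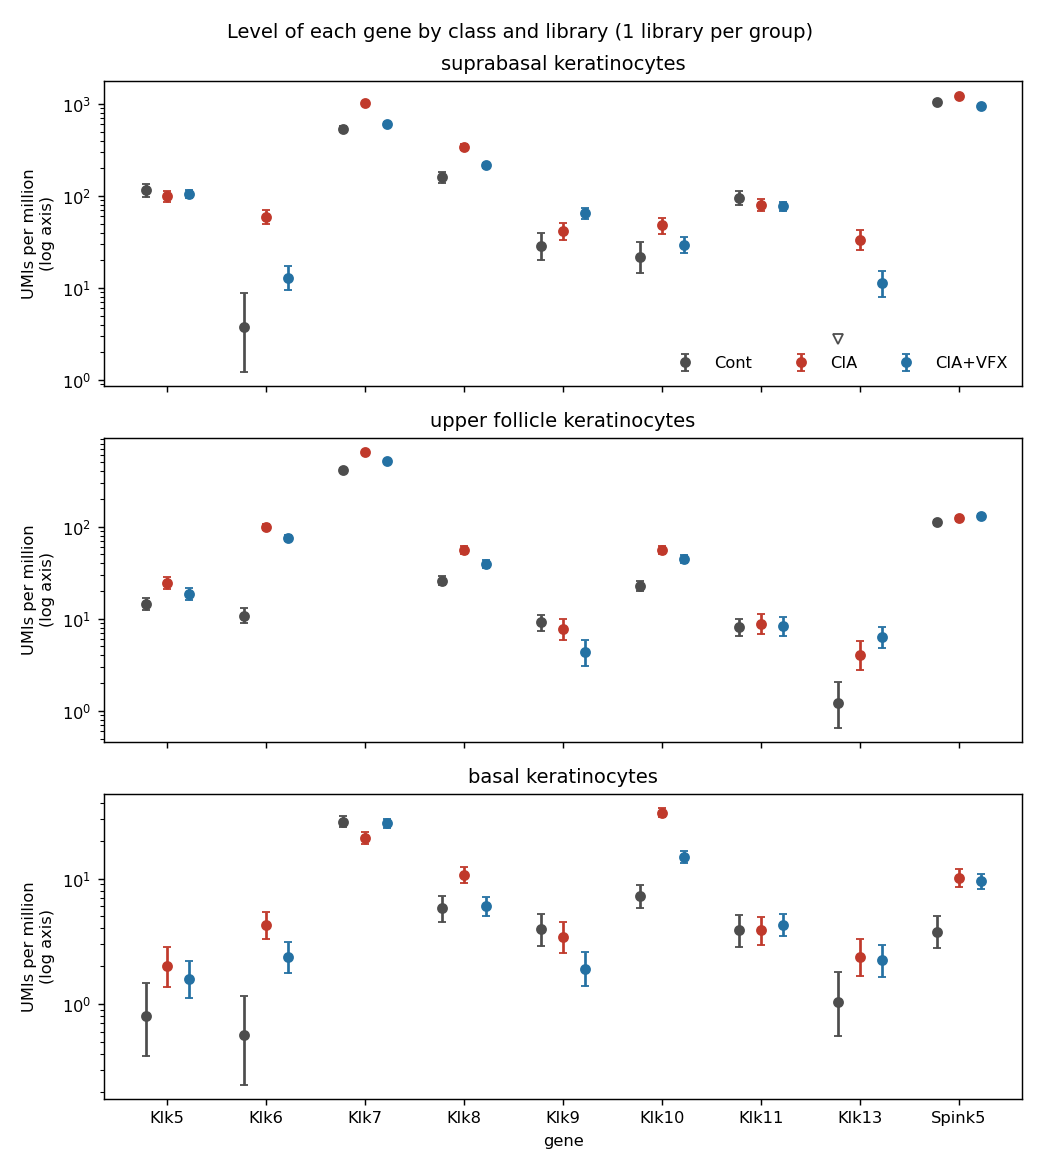
Points show the level of each gene in CPM (log axis) in suprabasal, upper follicle and basal keratinocytes of the 3 libraries, with exact Poisson intervals (95%); an open triangle is the upper limit of a gene with 0 UMIs. Klk6 was highest in CIA in all 3 classes, Spink5 was between 953 and 1210 in suprabasal cells of every library, and Klk10 stood out among basal cells in CIA.

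In suprabasal cells the kallikreins divided into those that were higher in CIA and those that were not. Of 9 measured members, 5 were higher in CIA than in Cont, against 9.88% of 6805 genes, and none was lower, against 25.4%. Klk7 had 533, 1015 and 612 CPM in Cont, CIA and CIA+VFX, and its log2 ratio between CIA and Cont was 0.93 (0.81 to 1.05). Klk8 had 161, 340 and 215 CPM (1.08, 0.86 to 1.31). Klk10 had 21.9, 48.0 and 29.4 CPM (1.13, 0.52 to 1.78). In each of these 3 genes CIA was the highest library and CIA+VFX was nearer to Cont. Markers of other follicle layers also differed in this class: the 4 companion layer markers, which include Krt6a and Krt6b, summed to 58.8, 1839 and 306 CPM in Cont, CIA and CIA+VFX, and the 7 inner root sheath markers to 1186, 331 and 1404. Their part in the kallikrein levels was not tested.

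Klk6 and Klk13 were almost absent from suprabasal cells of Cont. Klk6 had 5 UMIs in Cont, 125 in CIA and 46 in CIA+VFX, or 3.77, 59.9 and 12.9 CPM (log2 3.99, 2.73 to 5.64). Klk13 had 0, 70 and 40 UMIs, or 0, 33.6 and 11.2 CPM. Set against a floor of 3 UMIs in Cont, Klk13 was at least 14.8-fold higher in CIA.

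By contrast the first protease of the cascade and the inhibitor hardly differed there. Klk5 had 116, 99.7 and 106 CPM (-0.22, -0.53 to 0.09), and Klk11 had 95.03, 80.1 and 77.1 CPM (-0.25, -0.59 to 0.10). Spink5 had 1063, 1210 and 953 CPM (0.19, 0.09 to 0.28). Klk9 had 28.7, 41.7 and 65.1 CPM and was the only measured member that was highest in CIA+VFX in this class.

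Between CIA+VFX and CIA, 5 of 9 suprabasal members were lower, against 6.09% of 7820 genes, and 1 was higher, against 10.4%. The lower ones were Klk6 (-2.22, -2.74 to -1.72), Klk13 (-1.58, -2.18 to -1.001), Klk7 (-0.73, -0.82 to -0.64), Klk10 (-0.70, -1.11 to -0.29) and Klk8 (-0.66, -0.81 to -0.51), and the higher one was Klk9 (0.64, 0.28 to 1.01). All 5 that were higher in CIA than in Cont were therefore lower in CIA+VFX than in CIA, in a pair of comparisons that share the CIA library. Against Cont, Klk6 and Klk9 of 8 measured members were higher in CIA+VFX, at 1.77 and 1.18 (6.96% of 7690 genes were higher and 19.6% lower). Under other settings Klk7 (-0.53, each cell with equal weight) and Klk8 (-0.58, without the deepest 5% of barcodes) were just short of the line, and Klk10 was -0.40 with equal weight. The Klk10 ratio of CIA+VFX to Cont, 0.43, was 1.98 without the deepest 5% of barcodes and 1.62 with equal weight, from 29 UMIs in Cont.

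The median log2 ratio of all genes in suprabasal cells was -0.21 between CIA and Cont, and scaling by TMM moved it to 0.07, an upward shift of 0.28 for every gene. With TMM Klk9 was also above the line in CIA (0.82), and Klk8 and Klk10 were above it in CIA+VFX against Cont (0.69 for both). Klk9 was at 0.97 without its top cell in each library and at 1.22 in thinned cells. A single cell carried 20.5% of the kallikrein UMIs of the 85 Cont cells. Leaving out the cell richest in Klk6 from each library gave Klk6 ratios of 4.31 between CIA and Cont and -2.77 between CIA+VFX and CIA.

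Shares of cells with a UMI were highest in CIA for Klk7, Klk8 and Klk13 and not for Spink5. After each suprabasal cell was thinned to 3000 UMIs (12, 16 and 23 shallower cells left out), Klk8 was found in 27.4%, 43.5% and 31.2% of cells in Cont, CIA and CIA+VFX. The intervals were 17.6 to 39.1, 34.3 to 53.0 and 24.8 to 38.3, so they overlapped. Klk7 was found in 23.3%, 38.3% and 26.6% of cells and Klk13 in 0%, 9.57% and 3.12%. Spink5 was found in 52.1%, 47.8% and 48.4%. Unthinned shares were 43.5%, 64.1% and 56.3% for Klk8, and 35.3%, 42.7% and 35.8% for Klk7. In cells with macrophage markers, which should lack these genes (median depth 5152, 5138.5 and 5440 UMIs, against 12763, 14803 and 14866 in suprabasal cells), thinned shares were at most 0.562% for Klk8, 0.750% for Klk7 and 0.136% for Spink5.

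The amount of protease transcript per inhibitor transcript also differed in suprabasal cells. The 9 kallikreins together had 0.902 UMIs per Spink5 UMI in Cont (0.836 to 0.974). The ratio was 1.42 in CIA (1.35 to 1.495) and 1.19 in CIA+VFX (1.13 to 1.24). These intervals treat the UMIs of 1 cell as independent, so they cannot decide whether the groups differ. A single cell held 20.5% of the kallikrein UMIs in Cont, and another held 14.4% of the Spink5 UMIs in CIA. The ratio without such cells was not tested. In the upper follicle the same ratio was 4.56, 7.28 and 5.49. Over all keratinocytes it was 3.09, 3.33 and 2.598, and CIA+VFX was the lowest. These are ratios of counted transcripts and say nothing of active protein. They pool all 9 kallikreins, whether or not LEKTI binds the protein.

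**Figure D3:**
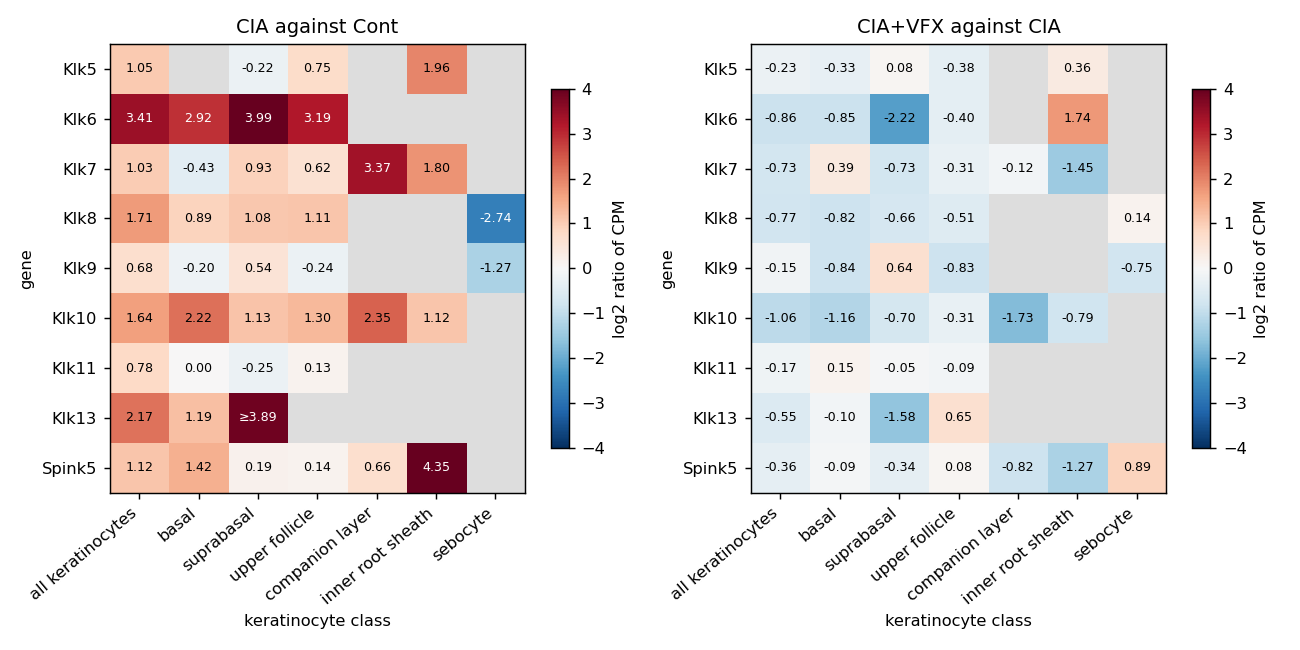
Tiles give the log2 ratio of CPM for each gene and keratinocyte class, CIA against Cont on the left and CIA+VFX against CIA on the right; grey marks fewer than 50 UMIs in the pair of libraries, and ≥ marks a bound from a floor of 3 UMIs. Klk6 was higher in CIA in all keratinocytes (3.41), suprabasal cells (3.99) and the upper follicle (3.19), while most tiles on the right are negative; the inner root sheath tiles of Spink5 (4.35) and Klk6 (1.74) come mostly from 1 cell each.

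In the upper follicle, 5 of 8 measured members were higher in CIA than in Cont (19.1% of 11251 genes) and none was lower (10.1%). Klk6 had 10.8, 98.5 and 74.7 CPM in Cont, CIA and CIA+VFX, with a log2 ratio of 3.19 (2.91 to 3.49) between CIA and Cont. Klk10 had 22.6, 55.5 and 44.8 CPM (1.30, 1.07 to 1.53), Klk8 had 26.0, 56.2 and 39.6 CPM (1.11, 0.89 to 1.33) and Klk5 had 14.5, 24.4 and 18.8 CPM (0.75, 0.44 to 1.07). Klk7 had 416, 639 and 517 CPM (0.62, 0.56 to 0.68). Klk9, Klk11 and Spink5 lay between -0.24 and 0.14.

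The ratios moved with how the class was drawn. When Krt17, Krt6a and Krt6b, keratins that injury induces, were left out of the markers, the ratios were 0.02 for Klk7, 0.00 for Klk8, 0.28 for Klk5 and 0.34 for Klk10. The Klk6 ratio was above the line in all 14 alternative settings, from 2.10 to 3.89. The highest of these came from cells of low suprabasal score, split as described below. It rests on 1 Klk6 UMI in Cont and 5 in CIA, under the minimum for a measured gene. With equal weight per cell Klk5 was at 0.26, and in thinned cells Klk10 was at 0.46. TMM scaling shifted all ratios in the class by -0.12 and put Klk7 at 0.50.

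The upper follicle cells that carried kallikreins were those that also carried suprabasal markers. Cells were split at 5 suprabasal marker UMIs per 10000, after the values had been seen. Cells at or above this score made up 30.9%, 54.5% and 51.0% of the class in Cont, CIA and CIA+VFX (166, 267 and 317 cells), and they held 99.1%, 99.4% and 98.9% of its kallikrein UMIs. The remaining 371, 223 and 304 cells had 6.39, 16.1 and 19.9 kallikrein CPM in all, against 1590, 1316 and 1139 in the cells with the higher score. Median depths were 12412, 15334 and 11108 UMIs above the line and 14637, 9191 and 9182 below it. Cells of higher score were thus deeper in CIA and CIA+VFX and shallower in Cont. The part of depth in the split was not tested.

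Within the cells of higher score most members were level or lower in CIA. Klk7 had 1304, 942 and 823 CPM in Cont, CIA and CIA+VFX, a log2 ratio of -0.47 between CIA and Cont, the opposite sign to the whole class. Klk8 had 78.8, 81.4 and 63.3 CPM (0.05), Klk10 had 70.3, 81.6 and 71.3 (0.21), and Klk5 had 45.7, 35.5 and 30.1 (-0.37). Klk9 had 28.1, 11.2 and 6.95 CPM (-1.33), Klk11 had 25.5, 13.1 and 13.2 (-0.96) and Spink5 had 349, 178 and 209 (-0.97). Of the measured members, Klk6 alone was above the line, with 33.7, 145 and 120 CPM (2.10). Klk13, with 12 UMIs in Cont and 31 in CIA, was under the minimum and had 3.52, 5.98 and 10.3 CPM, so it too stood higher in CIA. The class levels of Klk5, Klk7, Klk8 and Klk10 were higher in CIA, and none of these 4 was 1.5-fold higher within the cells of higher score. Such cells made up more of the class in CIA than in Cont. The part of this share in the class levels was not tested.

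**Figure D4:**
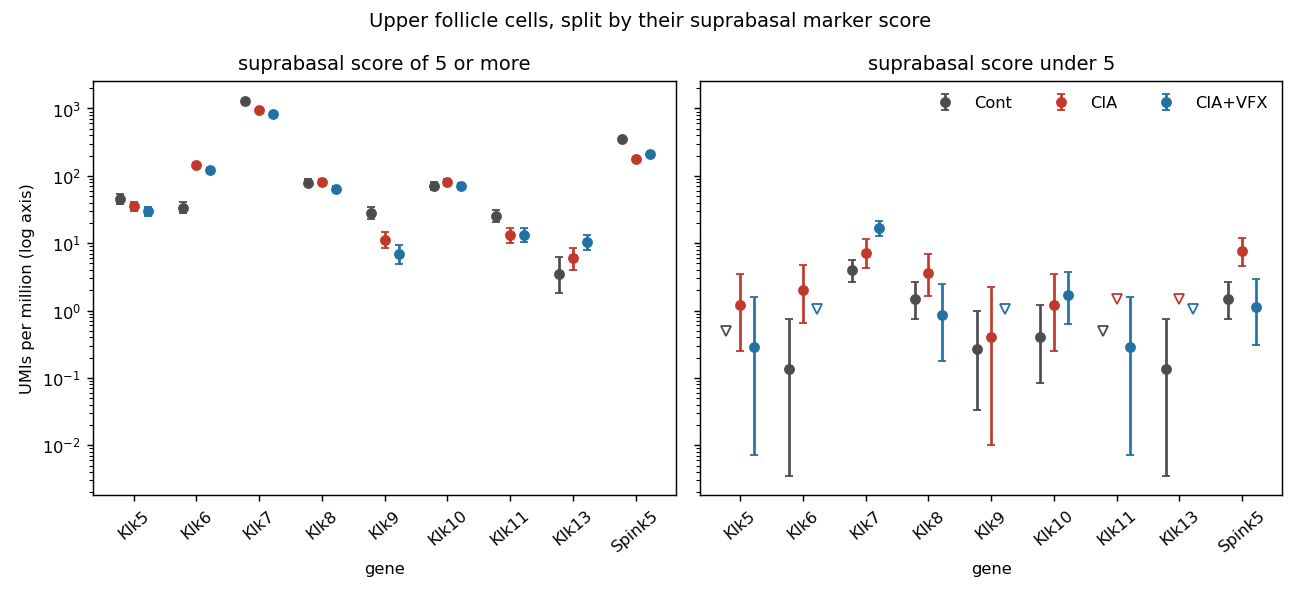
Points show the level of each gene (CPM, log axis, exact Poisson intervals) in upper follicle cells with a suprabasal score of 5 or more (left) and under 5 (right); an open triangle is the upper limit at 0 UMIs. Levels on the left reach 1304 for Klk7 in Cont, and there Klk6 is the gene that is clearly higher in CIA and CIA+VFX than in Cont, while Klk7, Klk9 and Spink5 are lower.

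Between CIA+VFX and CIA the upper follicle differed little. Klk9 was lower (-0.83, -1.45 to -0.23; 4.54% of 11215 genes were lower) and Klk13 was higher (0.65, 0.00 to 1.33; 4.31%), each with few UMIs. Klk13 was -0.58 with equal weight per cell and -0.50 in thinned cells, so its direction depended on how cells were added. Klk6 stayed high, at -0.40 (-0.55 to -0.25) against CIA. In suprabasal cells its ratio was -2.22, and the difference between these classes has no test with 1 library each. Against Cont, Klk6, Klk8, Klk10 and Klk13 of 9 members were higher in CIA+VFX (14.7% of 11454 genes) and Klk9 was lower (7.94%). Within the cells of higher score the same ratios were 1.84 for Klk6, 1.54 for Klk13, 0.02 for Klk10 and -0.32 for Klk8.

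Klk6 sat in cells that also made Klk7. In thinned upper follicle cells (30, 33 and 54 shallower cells left out), Klk6 was found in 2.37%, 6.56% and 5.82% of cells in Cont, CIA and CIA+VFX, and unthinned in 4.47%, 16.3% and 10.8%. Of the 30 Klk6 cells in CIA, 28 also had a Klk7 UMI, compared with 17.6% of the cells without Klk6. In CIA+VFX it was 31 of 33 against 14.6%. The inhibitor was placed likewise: 29 of 30 Spink5 cells in Cont, 37 of 47 in CIA and 45 of 54 in CIA+VFX had Klk7. The cells without Klk6 included those of low suprabasal score, which held few kallikrein UMIs. Among all cells of higher score Klk7 was found in 50.2% in CIA and 46.1% in CIA+VFX, without thinning. Klk6 also rested on few cells, since 1 cell carried 24.1%, 23.3% and 16.7% of its upper follicle UMIs.

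The markers of the basal class, Krt5 and Krt14 among them, are those of basal epidermis and of the outer root sheath of the follicle. The class was not divided between these tissues. Its cells had low levels of most members, and Klk10 was the one that stood out. Klk10 had 7.23, 33.6 and 14.99 CPM in Cont, CIA and CIA+VFX, and its log2 ratio was 2.22 (1.89 to 2.56) between CIA and Cont and -1.16 (-1.37 to -0.96) between CIA+VFX and CIA. It made up 14.0%, 41.3% and 24.5% of basal kallikrein UMIs. Klk10 was found in 1.85%, 4.66% and 2.85% of thinned basal cells (4.19%, 10.2% and 6.75% unthinned), and no cell held more than 12.2% of its UMIs in any library.

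Of 8 measured members, 5 were higher in basal cells of CIA than of Cont (16.6% of 12659 genes) and none was lower (7.38%). They were Klk10, Klk6 (2.92), Spink5 (1.42), Klk13 (1.19) and Klk8 (0.89). Spink5 had 3.78, 10.1 and 9.52 CPM, and 42.04% of its CIA UMIs came from 1 cell. Klk8 was below the line with equal weight per cell (0.23), and Klk7 changed from -0.43 to 1.16 when the injury keratins were left out of the markers. In CIA+VFX, 4 of 9 were lower than in CIA (Klk6, Klk8, Klk9 and Klk10; 3.72% of 13409 genes) and none was higher (3.44%). Against Cont, 4 of 8 were higher in CIA+VFX (Klk6, Klk10, Klk13 and Spink5; 12.7% of 13142 genes) and Klk9 was lower (5.97%). This Spink5 ratio of 1.33 was 0.01 in thinned cells. The thinned ratios of Klk10 and Klk8 between CIA+VFX and CIA were -0.52 and -0.13.

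In the deeper follicle the members were fewer. In the companion layer, the sleeve between the sheaths, Klk7 had 20.04, 207 and 191 CPM from 21, 229 and 245 UMIs (97, 149 and 159 cells), a log2 ratio of 3.37 (2.72 to 4.09) between CIA and Cont. Only 4 of the 21 Cont UMIs were outside 1 cell, and without the top cell of each library the ratio was 5.36. The markers of this class include Krt6a and Krt6b, keratins that injury induces. Its median companion score was 12.8, 26.3 and 16.2 in Cont, CIA and CIA+VFX, and its median upper follicle score was 10.2, 22.6 and 13.6. The part of these differences in the kallikrein levels was not tested. Klk10 had 7.63, 38.9 and 11.7 CPM there (2.35, 1.245 to 3.65). With Spink5 at 0.66, all 3 measured members were above the line in CIA (13.7% of 6046 genes were higher and 10.4% lower), though Spink5 was at 0.32 without its top cell in each library. In CIA+VFX, compared with CIA, Klk10 (-1.73) and Spink5 (-0.82) of 3 were lower (6.33% of 6397 genes) and none was higher (7.27%), and Spink5 was at -0.27 without its top cells. The Klk10 ratio between these libraries was 0.0747 with the class cuts doubled. Against Cont only Klk7 was measured, and it was higher in CIA+VFX at 3.26 (11.1% of 6278 genes were higher and 6.67% lower).

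In the inner root sheath, which moulds the hair, 4 of 4 measured members were higher in CIA (5.42% of 10935 genes were higher and 6.52% lower). Klk7 had 38.8, 135 and 49.5 CPM (1.80, 1.63 to 1.97), Klk10 had 13.9, 30.2 and 17.4 (1.12, 0.78 to 1.45) and Klk5 had 1.87, 7.27 and 9.32 (1.96, 1.16 to 2.74). In CIA+VFX, 1 cell carried 39.9% of the Klk7 UMIs and 39.7% of the Klk5 UMIs. Without the top cell of each library Klk7 had 35.7, 111 and 29.9 CPM and Klk5 had 1.46, 5.95 and 5.64, so CIA+VFX was then below Cont for Klk7 and below CIA for Klk5. Spink5 had 2.34, 47.7 and 19.7 CPM, but 1 cell carried 91.5% of its UMIs in CIA and 83.3% in CIA+VFX. Without the top cell of each library the Spink5 ratio was 1.41 in place of 4.35. Relative to CIA, in CIA+VFX Klk7 (-1.45), Klk10 (-0.79) and Spink5 (-1.27, or -0.30 without the top cells) of 5 members were lower (2.85% of 9800 genes). Klk6 was higher at 1.74 (5.6%), but 72.8% of its CIA+VFX UMIs were in 1 cell and the ratio was 0.21 without the top cells. Against Cont, Klk5, Klk6, Klk8 and Spink5, 4 of 6, were higher in CIA+VFX (6.15% of 11334 genes) and none was lower (2.96%). In CIA+VFX the top cell of these 4 genes and of Klk7 was the same by its UMI total. A single cell held 36.3% of the kallikrein UMIs of the class there. Without the top cells Klk6 had 9 UMIs in Cont and 25 in CIA+VFX, and Klk8 had 25 and 21, too few to count as measured.

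In sebocytes, the lipid cells of the sebaceous gland, both measured members were lower in CIA than in Cont. Klk8 had 35.0, 5.25 and 5.80 CPM in Cont, CIA and CIA+VFX (-2.74, -3.65 to -1.90 between CIA and Cont). Klk9 had 30.1, 12.5 and 7.40 CPM (-1.27, -1.94 to -0.61). Of 7386 genes, 20.1% were lower and 11.8% higher, and TMM scaling raised all ratios by 0.20. In thinned cells Klk9 was at -0.55. Klk10 had 6 UMIs in Cont and 36 in CIA, too few to be compared, and 3 and 9 without the top cell of each library. Between CIA+VFX and CIA, Klk9 (-0.75) was lower (2.21% of 9238 genes) and Spink5 (0.89) higher (7.8%) of 3 members, with Spink5 at -0.14 in thinned cells. Against Cont, Klk8 (-2.59) and Klk9 (-2.02) were lower in CIA+VFX (14.7% of 8963 genes) and none was higher (11.5%).

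Klk8 alone had a large pool outside the epithelium. Only 52.3%, 61.1% and 64.8% of its UMIs were in gated keratinocytes of Cont, CIA and CIA+VFX, and 43.0%, 28.5% and 24.7% (537, 634 and 517 UMIs) were in barcodes with immune markers. These barcodes were split by Cd3e, a chain of the T cell receptor complex, and Csf1r, a receptor of macrophages, after 17 genes had been looked at with the values in view (15 of them are among the genes counted). In barcodes with Cd3e and no Csf1r (868, 975 and 777), Klk8 had 57.4, 70.0 and 80.6 CPM. In those with Csf1r and no Cd3e (1609, 1946 and 1320) it had 1.37, 1.26 and 1.73 CPM.

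By cells, Klk8 was found in 15.5%, 18.2% and 19.3% of thinned barcodes with Cd3e and in 0.357%, 0.173% and 0.419% of those with Csf1r. Unthinned shares in Cd3e barcodes were 23.5%, 26.3% and 29.99%. Keratinocyte transcripts were counted in both groups: Krt5 had 15.4, 25.0 and 34.1 CPM with Cd3e and 13.6, 21.3 and 33.4 with Csf1r. Krt14 had 15.8, 40.4 and 55.0 CPM with Cd3e and 21.2, 34.0 and 48.5 with Csf1r. The part of free RNA or of barcodes with more than 1 cell in the Klk8 counts was not tested. Klk7, far more abundant in keratinocytes than Klk8, had at most 3.42 CPM in the Cd3e barcodes. The antisense gene 2310002F09Rik has an exon that overlaps the Klk8 promoter window. It had 3.90, 3.85 and 4.13 CPM in the Cd3e barcodes, 0, 0.236 and 0.231 in the Csf1r barcodes and 9.87, 10.3 and 9.49 in keratinocytes. It thus differed between the immune groups in the same direction as Klk8, and its part in the Klk8 counts was not tested.

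**Figure D5:**
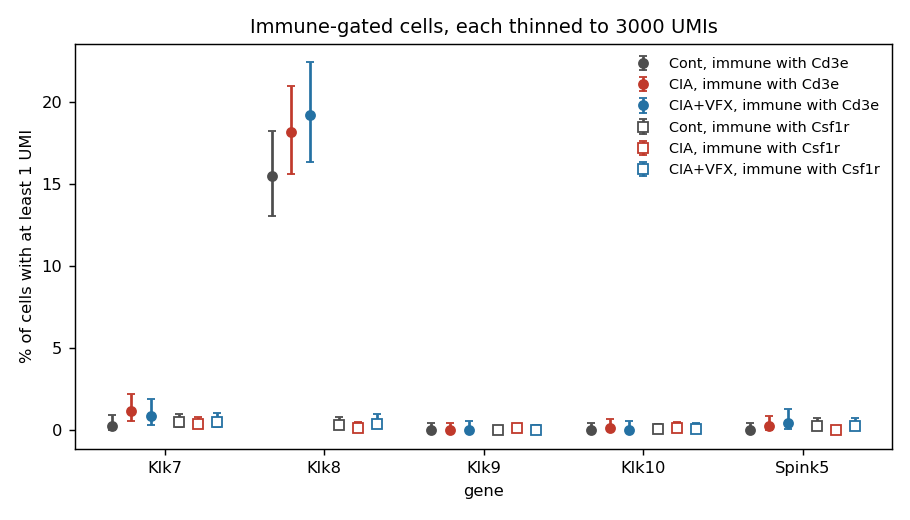
Points give the percent of immune-gated cells with at least 1 UMI after thinning to 3000 UMIs, for barcodes with Cd3e (filled) and with Csf1r (open), with Clopper-Pearson intervals. Klk8 was found in 15.5% to 19.3% of Cd3e barcodes and in under 1% of Csf1r barcodes, and Klk7, Klk9, Klk10 and Spink5 were near 0 in both.

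Over the 27 pairs of class and library, the members' own patterns were closest for Klk5 and Klk7 (Pearson's r of log2(CPM + 1) 0.913), Klk8 and Klk9 (0.905) and Klk5 and Spink5 (0.902). Among 11602 other genes, those most like Klk7 were Krt80 (0.911), Crabp2 (0.889), Sprr1a (0.879), Aqp3 (0.873) and Tmem45a (0.871). Those most like Spink5 were Teddm3 (0.902), Pla2g2f (0.893), Slc5a1 (0.892), Tprg (0.892) and Tmprss4 (0.888), and those most like Klk8 were Pdzk1ip1 (0.940), Dusp22 (0.900), Ggh (0.899), Tmprss4 (0.895) and Gmppb (0.892). The 27 points share 3 libraries and differ in depth, so these values are descriptions.

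Corneodesmosome genes, whose proteins kallikreins cut, were near the median of all genes over all keratinocytes, and stood above it in the suprabasal and upper follicle classes. Over all keratinocytes, 1 of 9 measured was higher in CIA than in Cont (13.9% of all genes were) and none was lower (5.54%). That gene was Cdsn (corneodesmosin, 0.75), and the lowest was Dsg1a (desmoglein 1, -0.49). In suprabasal cells, 3 of 8 were higher (9.88% of all genes), led by Dsg1b at 1.10, and 1 was lower (25.4%), Cdsn at -1.77 with 63 UMIs in Cont and 29 in CIA. In the upper follicle, 3 of 9 were higher (19.1%) and none was lower (10.1%), and in CIA+VFX against Cont 4 were higher (14.7%) and 1 was lower (7.94%). Between CIA and Cont, none of 10 lamellar granule genes was past the line over all keratinocytes (13.9% of all genes were higher and 5.54% lower). In CIA+VFX, 2 of the 10 were higher than in CIA (3.22% of all genes) and 1 was higher than in Cont (10.6%). The median log2 ratio of the corneodesmosome genes between CIA and Cont was 0.02 over all keratinocytes, 0.21 in suprabasal cells and 0.30 in the upper follicle, beside 0.05, -0.21 and 0.09 for all genes. In CIA+VFX against Cont it was 0.56 in the upper follicle, beside 0.07. The granule genes had medians of -0.12, -0.10 and 0.28 in the same 3 sets of cells between CIA and Cont.

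Of 8 measured genes for other proteases of the cascade, the receptor F2rl1 and other inhibitors, Tmprss4, a membrane serine protease, was higher (1.86 over all keratinocytes, 0.69 in suprabasal cells), none was lower, and Spint2, an inhibitor, had the lowest value (-0.11 over all keratinocytes, where 13.9% of all genes were higher and 5.54% lower). In the upper follicle 2 of 7 were higher in CIA than in Cont (19.1% of all genes) and none was lower (10.1%). The median there was 0.36, beside 0.09 for all genes, and 0.41 in CIA+VFX against Cont, beside 0.07. None of the 17 other kallikrein genes looked for, Klk12 and Klk4 among them, reached 50 UMIs. Granular layer genes were divided in suprabasal cells: of 6 measured, 2 were higher (9.88% of all genes) and 3 were lower (25.4%). Flg, filaggrin, was at 1.72, Lor, loricrin, at -5.34 (154 UMIs in Cont and 6 in CIA), and Flg2 had 84 UMIs in Cont and 0 in CIA.

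Genes of the wounded epidermis were higher in CIA over all keratinocytes and in suprabasal cells. All 8 genes of that list were above the line in both (13.9% and 9.88% of all genes were), with a median log2 ratio of 5.03 over all keratinocytes and 6.44 in suprabasal cells. In the upper follicle 6 of 6 measured genes of the list were higher in CIA (19.1% of all genes), with a median of 3.19. In basal cells 4 of 5 were higher (16.6%), with a median of 2.80. In the inner root sheath 1 of 3 was higher (5.42%) and the median was -0.20. Stfa3, a cystatin, stood at 8.59 in suprabasal cells and Krt6a at 3.997, and Krt6b had 0 UMIs in Cont and 2163 in CIA. Between CIA+VFX and CIA, 6 of the 8 were lower in suprabasal cells (6.09% of all genes) and none was higher (10.4%), with Krt6b lowest at -4.42 and Sprr2d highest at -0.35. The part of this list in the kallikrein levels was not tested.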

How the data were processed

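Single-cell libraries of 3' ends were deposited by the authors as UMI counts per gene and barcode, made with Cell Ranger 8.0.1 on the GRCm39 genome, per the submitters' processing notes. No free-RNA or doublet correction is stated in the sources used here. A barcode needed 500 genes, with no more than 15% of its UMIs from mitochondria. Keratinocytes had a marker score of at least 20 UMIs per 10000, and barcodes that also reached 10 for another tissue were left out; no doublet caller was run. Each keratinocyte went to the class with the highest ratio of score to cut, or to none under 1. Cuts were set after the score distributions had been seen and were then left unchanged. Krt85 was not among the genes counted. Members, lists and markers were chosen with earlier results of these data known.

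UMIs were summed per class and library and given as CPM with exact Poisson intervals; ratios have exact conditional binomial intervals. The 3' kit counts a transcript once whatever its length. Thinned shares have Clopper-Pearson intervals. Molecules of 1 cell are not independent replicates, so intervals cover counting error only, and n = 1 library per group. Every member was named. Genes of like pattern were the 5 with the highest correlation for each of the 3 members with most UMIs, and from each related list the highest and lowest measured genes were named, with Flg2, Krt6b, Klk12 and Klk4 added after their values were seen. The intervals were tested on simulated counts. Python 3.11.15, numpy 2.4.6, scipy 1.17.1, R 4.3.3 and edgeR 4.0.16 (TMM factors) were used.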

Additional observations from a re-analysis of the deposited data

How the results depend on the processing

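No paired analysis was possible because each group had 1 library. Of 1720 member ratios recomputed under the alternatives, 1347 moved by less than their counting interval, 354 moved by more and 19 changed the sign of a called value; the cause was not tested. Alternatives chosen after the data were seen were the class shares of Cont, the split of the upper follicle, gates without injury keratins and leaving out the top cell. With the class shares of Cont, members higher in CIA were 4 in place of 9, members lower in CIA+VFX than in CIA 2 in place of 4, and against Cont 2 were higher in place of 6 and 1 lower in place of 0. Equal weight per cell also gave 2 higher against Cont, and leaving out the deepest 5% of barcodes 2 lower against CIA. Signs changed with the class shares of Cont for Klk9 (-0.45) and Klk11 (-0.28) in CIA against Cont, and for Klk11 (-0.32) and Spink5 (-0.13) in CIA+VFX against Cont. In upper follicle cells of high suprabasal score they changed for Klk5 (-0.37) and Klk7 (-0.47) in CIA and for Klk8 in CIA+VFX against Cont (-0.32). Klk8 there was -0.81 in cells of low score, from only 11 UMIs in Cont and 3 in CIA+VFX, and -0.0429 without injury keratins. Between CIA+VFX and CIA, signs changed for upper follicle Klk13 (-0.58 with equal weight, -0.50 thinned), companion Klk10 (0.0747 with cuts doubled), inner root sheath Klk6 (-0.74 without the deepest 5%), sebocyte Spink5 (-0.14 thinned) and unclassed Spink5 (0.0781 with equal weight). Against Cont they changed for inner root sheath Klk8 (-0.17 without the deepest 5%) and unclassed Spink5 (1.67 and 0.00974 with cuts divided by 2 or doubled, 0.17 with equal weight). Counts of all genes followed the minimum: 2206 higher and 880 lower in CIA were 3785 and 1684 at 10 UMIs and 1263 and 532 at 200. For CIA+VFX against CIA, 520 and 766 were 1429 and 1819 at 10 UMIs, 205 and 335 at 200, and 1035 and 1320 in thinned cells. For CIA+VFX against Cont, 1753 and 670 were 3087 and 1467 at 10 UMIs and 966 and 328 at 200, with 1038 lower in thinned cells. The limits are 1 library per group, classes drawn by cuts on marker scores, 85 suprabasal cells in Cont, and Cont keratinocytes that were the deepest over all classes pooled.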

Other observations

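Among the upper follicle cells with a suprabasal score of 5 or more, Klk7 was found in 56.0%, 50.2% and 46.1% of cells in Cont, CIA and CIA+VFX, Klk10 in 27.7%, 35.2% and 26.2%, and Klk6 in 13.9%, 28.5% and 21.1%, without thinning. These cells held 31.7%, 67.6% and 62.0% of the UMIs of the class. In the immune barcodes with neither Cd3e nor Csf1r (2307, 2589 and 1862), Klk8 had 19.3, 21.3 and 19.9 CPM, between the values of the barcodes with Cd3e and those with Csf1r.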
